A study of Mus musculus with 8 samples.

Results

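The subject is a set of 78 mouse genes that were dim in control embryonic stem cells (ESCs) and clearly brighter after knock-down of Rad21, out of 18193 genes represented on the arrays. Rad21 encodes a core subunit of cohesin, the ring-shaped complex that holds sister chromatids together and shapes chromatin loops. R1/E cells, a mouse ESC line, were transfected with esiRNA against Rad21 or with a non-targeting esiRNA against luciferase (Luc), and RNA was taken after 48 h. An esiRNA is a mixture of short interfering RNAs cut by an enzyme from a longer double-stranded RNA. Both groups shared the cell line, the dose of 800 ng esiRNA, the lipid reagent Lipofectamine2000, the 80000 cells per well and feeder-free culture with LIF, and each group had 4 arrays labelled as biological replicates 1 to 4. All cells were of a single ESC line, nothing in the sources states separate thaws or days, and p-values therefore measure the spread between these arrays.

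Members were chosen from the measured values. A gene was represented by its brightest probe set with a single gene symbol, and it entered the set when its mean over the 4 Luc arrays was under 4.5 on the log2 scale, its mean over the Rad21 arrays was at least 1.5 higher, and its lowest Rad21 value lay above its highest Luc value. Of 8287 genes with a Luc mean under 4.5, 86 met these conditions, 8 of them were left out by name, and the remaining 78 are 0.941% of the dim genes. The levels and changes of the members between the groups are thus given as a description, without a test. GCRMA, the summary method used, pulls dim probe sets to a low plateau, so a low value says that a probe set was near the background of the array and not that the transcript was absent. In RNA from a whole culture, a change in few cells and a smaller change in all cells cannot be told apart.

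The knock-down and the cell type were checked first. The brightest Rad21 probe set had 13.67 ± 0.19 in Luc and 12.08 ± 0.43 after Rad21 esiRNA (log2, SD, n = 4), so that 33.4% of the signal remained (adjusted p = 0.00222 in limma). Pou5f1, Sox2, Nanog and Zfp42, defining ESC markers, had Luc means of 15.05, 14.74, 13.80 and 15.10. Of 20 pluripotency genes, 15 fell and 1 rose, where 12.6% of all genes fell and 10.1% rose. The fibroblast collagens Col1a1 and Col1a2 stayed between 2.42 and 2.89 on all 8 arrays, while Col3a1, another, varied more. Col3a1 was near 3 on all Luc arrays and had 4.69, 4.25, 3.11 and 3.42 on Rad21 arrays 1 to 4 (adjusted p = 0.189 in limma). Of 14 measured genes of a fibroblast list, 1 rose (Vim, by 0.80) and 1 fell. The leukocyte marker Ptprc stayed between 2.39 and 2.46. Among other blood and macrophage markers, Csf1r stayed between 2.88 and 2.97, while Cd68, a lysosomal protein, had 8.45 ± 0.14 in Luc and 8.13 ± 0.19 after Rad21 esiRNA (adjusted p = 0.0982 in limma) and Laptm5, also lysosomal, fell from 11.95 ± 0.09 to 11.10 ± 0.32 (adjusted p = 0.00743 in limma). The first principal component held 66.2% of the variance and parted the groups, and the second held 11.6% and parted replicates 1 and 2 from replicates 3 and 4, for which the labels name no batch.

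Genes that are silent in ESCs include many that serve one differentiated tissue, such as hormone genes, muscle myosins, neuronal adhesion molecules and epidermal proteins. Silent genes can lie in compact chromatin, carry repressive marks at CpG-rich promoters, or lack an activating factor, and cohesin is known to act at enhancers, promoters and boundaries of chromatin domains. The 78 members comprised 76 protein-coding genes, the transcribed pseudogene Gm4850 and the long non-coding RNA AI504432, and all 78 symbols were found in RefSeq. They lay on 19 chromosomes, with 7 members each on chromosomes 1, 6, 9 and 11, 6 on chromosome 15 and 5 on the X chromosome.

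The promoters of 5 members are shown because these genes carry the results described below. Apol8 and Vwce had the largest changes, Sct is a peptide hormone gene with a TATA box, Cav2 is a caveolin gene next to Cav1, and Dmkn lies beside the epidermal genes Sbsn and Krtdap. Each run is the 150 bases before the RefSeq start, 5′ to 3′ on the strand of the gene, in build GRCm38.p6. Capitals mark the TATA box TATAAA, the GC box GGGCGG and the AP-1 site TGACTCA, or their reverse complements on the other strand.
Apol8, chr15:77757011-77757160, minus strand, no match: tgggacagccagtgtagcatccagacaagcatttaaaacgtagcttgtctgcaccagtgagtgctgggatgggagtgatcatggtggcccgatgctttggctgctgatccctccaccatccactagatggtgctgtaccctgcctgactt
Vwce, chr19:10634083-10634232, plus strand, GC boxes: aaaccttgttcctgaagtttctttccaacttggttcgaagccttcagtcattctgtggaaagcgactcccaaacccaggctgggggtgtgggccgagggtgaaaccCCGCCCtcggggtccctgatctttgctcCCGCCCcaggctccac
Sct, chr7:141279134-141279283, minus strand, GC boxes and TATA box: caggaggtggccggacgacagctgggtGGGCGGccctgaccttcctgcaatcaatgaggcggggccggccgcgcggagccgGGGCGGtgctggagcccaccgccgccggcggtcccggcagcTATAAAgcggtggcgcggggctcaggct
Cav2, chr6:17281035-17281184, plus strand, AP-1 site and GC box: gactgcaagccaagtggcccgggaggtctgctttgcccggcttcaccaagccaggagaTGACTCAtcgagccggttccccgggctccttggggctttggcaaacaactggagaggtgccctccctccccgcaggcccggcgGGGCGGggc
Dmkn, chr7:30763606-30763755, plus strand, AP-1 site: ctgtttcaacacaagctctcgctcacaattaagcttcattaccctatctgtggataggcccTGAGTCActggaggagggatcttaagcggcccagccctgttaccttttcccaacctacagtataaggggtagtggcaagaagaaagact

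The change of the members, Rad21 mean minus Luc mean, ran from 1.501 to 3.75 on the log2 scale with a median of 1.93, which is 2.83-fold to 13.5-fold on the linear scale as measured. Since the Luc values lay near the background of the arrays, these folds may understate the change of the transcripts. The members were also chosen by the size of this change on the same arrays, which can overstate it. Luc means ran from 1.57 to 4.496 with a median of 3.32, and Rad21 means from 3.16 to 7.35 with a median of 5.39. A change of at least 2 was seen for 33 members and of at least 3 for 4. The level reached was modest. Only 28 members exceeded the median Rad21 mean of all genes, 5.72, and no member went beyond the 59.0th percentile of all genes, although levels of different probe sets are only roughly comparable. Another 12 members still had a Rad21 mean under 4.5. All 78 members had groups that did not overlap, a condition of their choice that no further dim gene with such a change failed. Of all dim genes, 4.92% had Rad21 values wholly above the Luc values, and of all 18193 genes 12.6%.

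**Figure D1:**
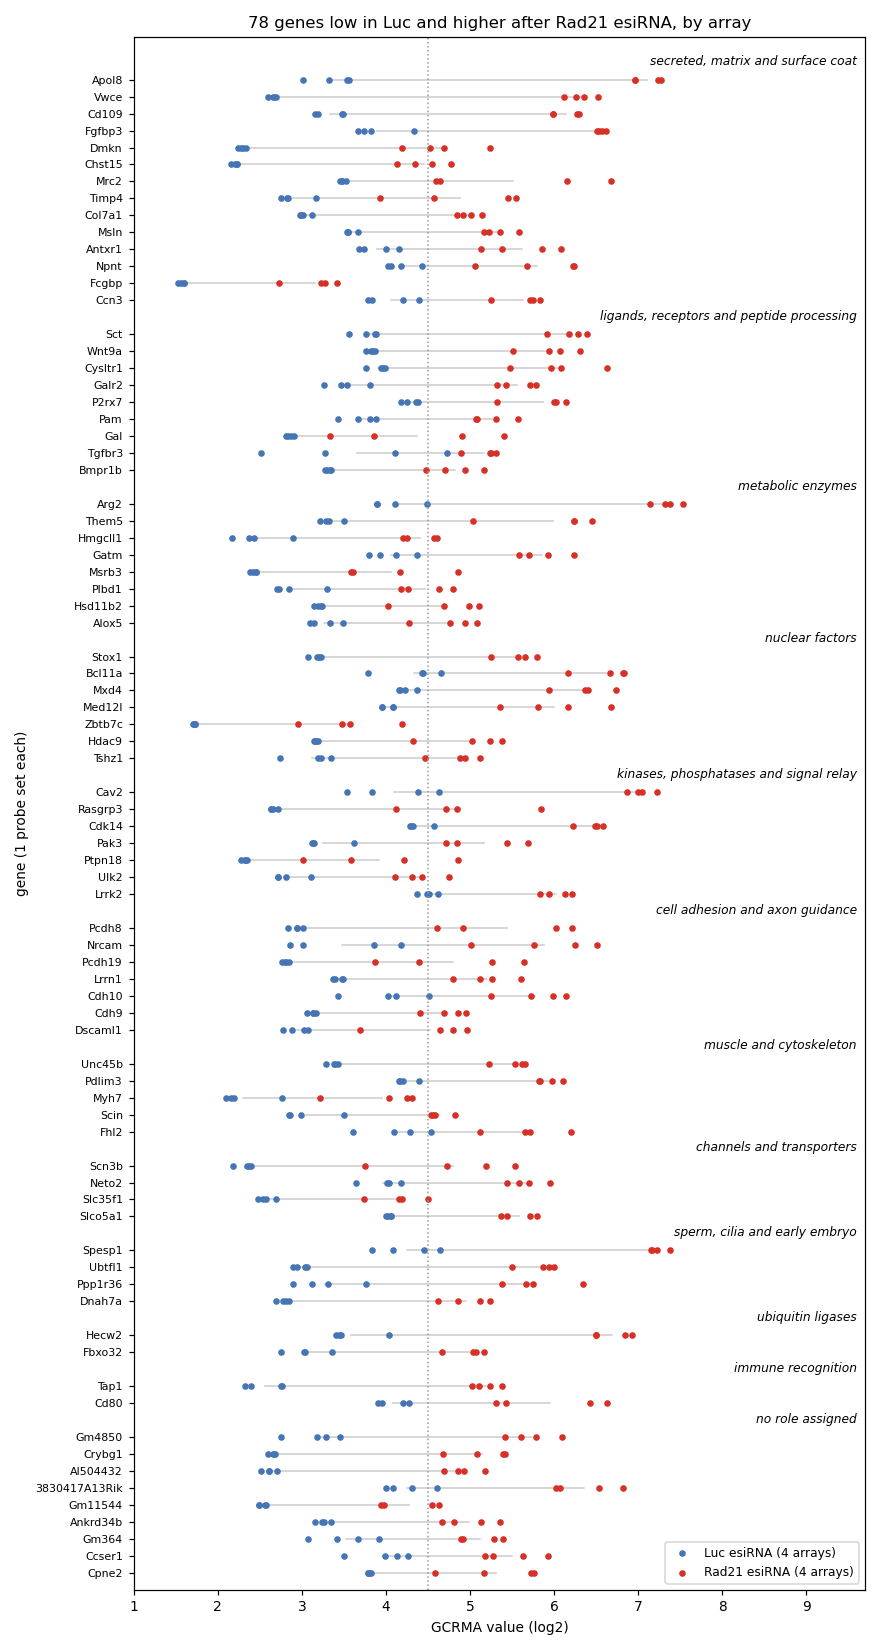
GCRMA values (log2) of the 78 members on each of the 8 arrays, 1 row per gene grouped by role, with blue points for Luc, red points for Rad21 esiRNA and a grey line between the group means. The dotted line is the limit of 4.5 for the Luc mean; Luc means lie between 1.57 and 4.496 and Rad21 means between 3.16 and 7.35.

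The largest role group, labelled secreted, matrix and surface coat, held 14 genes with changes of 1.58 to 3.75. The label is broad, and where the proteins lie was not measured. Apol8, of the lipid-binding apolipoprotein L family, had 3.33, 3.02, 3.56 and 3.53 on Luc arrays 1 to 4 and 6.96, 6.96, 7.24 and 7.28 on Rad21 arrays 1 to 4. Its means were 3.36 ± 0.25 and 7.11 ± 0.17 (SD, n = 4), and the nearest arrays of the groups were 3.40 apart. Vwce, a secreted protein with von Willebrand factor C and EGF domains, had 2.67, 2.59, 2.66 and 2.69 on the Luc arrays and 6.12, 6.53, 6.26 and 6.36 on the Rad21 arrays. Both genes were thus dim on all Luc arrays, and each had similar, higher values on all Rad21 arrays. By their Rad21 means, Apol8 and Vwce lay only at the 57.4th and 52.9th percentile of all genes. Cd109, a membrane-anchored protein that binds TGF-β, had 3.50, 3.48, 3.19 and 3.15 in Luc and 6.28, 6.30, 5.99 and 5.99 after Rad21 esiRNA. In both groups its replicates 3 and 4 lay lower than replicates 1 and 2. Fgfbp3, which encodes a secreted carrier of fibroblast growth factors, had 4.34, 3.66, 3.83 and 3.73 in Luc and 6.54, 6.62, 6.51 and 6.57 after Rad21 esiRNA, so that its spread was smaller in the knock-down (SD 0.05) than in Luc (SD 0.30).

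The other genes of this group were of mixed kind. Dmkn, a secreted protein of differentiating epidermis, had 2.30, 2.28, 2.34 and 2.24 in Luc and 4.52, 4.19, 4.69 and 5.23 after Rad21 esiRNA. Col7a1, the collagen of anchoring fibrils below the epidermis, was higher by 1.95. Chst15, a sulfotransferase for chondroitin sulfate, was higher by 2.25. Npnt, an integrin ligand of basement membranes, was higher by 1.63, and Timp4, an inhibitor of matrix metalloproteinases, by 1.98. Msln, the surface protein mesothelin of body-cavity linings, was higher by 1.76, and Antxr1, a collagen-binding anthrax toxin receptor, by 1.72. Fcgbp, a mucus protein, had the lowest Luc mean of all members, 1.57, and reached only 3.16. Ccn3, a matricellular protein, was higher by 1.58. Mrc2, a receptor for collagen uptake, was even in Luc (3.46 to 3.52) and uneven after Rad21 esiRNA, with 4.59, 4.64, 6.15 and 6.68 on arrays 1 to 4.

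A further 9 genes were placed as ligands, receptors or peptide-processing enzymes, with changes of 1.51 to 2.42. Among them, and picked out after their values were seen, were peptide hormones, a receptor and a processing enzyme. Sct, which encodes the gut hormone secretin, had 3.88, 3.76, 3.56 and 3.87 in Luc and 6.18, 6.29, 5.91 and 6.39 after Rad21 esiRNA. Gal, which encodes the neuropeptide galanin, had 2.83, 2.81, 2.91 and 2.87 in Luc and 5.40, 4.91, 3.34 and 3.86 after Rad21 esiRNA. Galanin is read by receptors that include Galr2, whose values were 3.46, 3.81, 3.53 and 3.26 in Luc and 5.42, 5.79, 5.72 and 5.33 after Rad21 esiRNA. Pam encodes the enzyme that amidates the C terminus of secretin and galanin, and it had 3.81, 3.88, 3.67 and 3.43 in Luc against 5.58, 5.31, 5.07 and 5.08. The 4 genes shared the direction that the rule fixes, and Gal differed from the others in its spread, with an SD of 0.94 over the Rad21 arrays.

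An enzyme and a receptor of leukotriene signalling, picked out after their values were seen, were also among the members. Alox5, the lipoxygenase that begins leukotriene synthesis, had 3.34, 3.49, 3.10 and 3.14 in Luc and 4.28, 4.76, 5.08 and 4.94 after Rad21 esiRNA. Cysltr1, a receptor for cysteinyl leukotrienes, had 3.76, 3.99, 3.94 and 3.96 in Luc and 6.63, 5.96, 5.48 and 6.08 after Rad21 esiRNA. The remaining receptors and ligands were Wnt9a, a Wnt ligand (change 2.13), P2rx7, an ATP-gated cation channel (1.58), Tgfbr3, a TGF-β co-receptor (1.51), and Bmpr1b, a BMP receptor (1.51). Tgfbr3 was the member with the closest groups, since its Luc arrays had 4.11, 4.72, 2.52 and 3.27 and its lowest Rad21 array lay only 0.17 above the highest of them.

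A group of 8 metabolic enzymes had changes of 1.501 to 3.25. Arg2, the mitochondrial arginase, had 3.89, 4.11, 3.89 and 4.49 in Luc and 7.32, 7.38, 7.54 and 7.15 after Rad21 esiRNA, the highest Rad21 mean among the members (7.35 ± 0.16). Them5, a mitochondrial acyl-CoA thioesterase, had 3.50, 3.21, 3.32 and 3.29 in Luc and 6.23, 5.03, 6.24 and 6.45 after Rad21 esiRNA, with array 2 apart from the others. Hmgcll1, an HMG-CoA lyase outside mitochondria, was higher by 1.94, and Gatm, which catalyses a step of creatine synthesis, by 1.80. Msrb3, a methionine sulfoxide reductase, Plbd1, a phospholipase B-like protein, and Hsd11b2, which inactivates glucocorticoids, were higher by 1.63, 1.57 and 1.503.

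The sperm, cilia and early-embryo group had only 4 members, with changes of 2.18 to 2.97. Spesp1, a protein of the sperm acrosome, had 4.46, 4.64, 4.09 and 3.84 in Luc and 7.23, 7.15, 7.16 and 7.37 after Rad21 esiRNA. Ubtfl1, an HMG-box gene of the preimplantation embryo, had 3.06, 2.89, 3.03 and 2.95 in Luc and 5.87, 6.0012, 5.94 and 5.50 after Rad21 esiRNA. The Rad21 arrays of Spesp1 spread less (SD 0.10) than those of Ubtfl1 (SD 0.23). Ppp1r36, a phosphatase subunit, was higher by 2.51 and Dnah7a, a dynein heavy chain of cilia and flagella, by 2.18.

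Signal relay and membrane scaffolding were represented by 7 genes. Cav2, one of the caveolins that coat small membrane pits, had 4.38, 4.63, 3.83 and 3.53 in Luc and 7.23, 7.0007, 7.05 and 6.86 after Rad21 esiRNA. Its Luc arrays varied more (SD 0.50) than its Rad21 arrays (SD 0.15). Cdk14, a kinase that acts on a Wnt co-receptor, had 4.57, 4.32, 4.30 and 4.29 in Luc and 6.48, 6.51, 6.22 and 6.58 after Rad21 esiRNA. Rasgrp3, an activator of Ras, was higher by 2.22, the kinase Pak3 by 1.91, the phosphatase Ptpn18 by 1.59, and the kinases Ulk2, of the autophagy pathway, and Lrrk2, a Parkinson's disease gene, by 1.56 and 1.53.

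Among 7 genes for cell adhesion and axon guidance, 4 were cadherins or protocadherins. Pcdh8 had 2.94, 2.84, 2.94 and 3.01 in Luc and 6.21, 6.02, 4.60 and 4.91 after Rad21 esiRNA. Pcdh19, an X-linked protocadherin of the brain, had 2.84, 2.80, 2.82 and 2.77 in Luc and 5.65, 5.27, 3.87 and 4.40. Both were lower on Rad21 arrays 3 and 4 than on arrays 1 and 2. The type II cadherins Cdh9 and Cdh10 are next to each other on chromosome 15, with 0 genes between them. Cdh9 had 3.06, 3.13, 3.16 and 3.13 in Luc and 4.69, 4.86, 4.40 and 4.95 after Rad21 esiRNA. Cdh10 had 4.13, 4.03, 4.51 and 3.44 in Luc and 6.15, 5.99, 5.73 and 5.25. Nrcam, an adhesion molecule of axons, had 4.17, 3.85, 3.02 and 2.86 in Luc and 6.51, 6.25, 5.02 and 5.76, so that replicates 3 and 4 were lower in both groups. Lrrn1 and Dscaml1, neuronal surface proteins, were higher by 1.77 and 1.59.

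Nuclear factors numbered 7, with changes of 1.72 to 2.40. Stox1, a winged-helix protein, was higher by 2.40, and Bcl11a, a zinc finger repressor known from fetal globin silencing, by 2.29. Mxd4, a partner of Max, was higher by 2.13, and Med12l, a Mediator subunit, by 1.99. Zbtb7c was higher by 1.83, although its Rad21 mean was only 3.55. Hdac9, a class II histone deacetylase, had 3.16, 3.14, 3.15 and 3.19 in Luc and 5.24, 5.03, 4.32 and 5.38 after Rad21 esiRNA. Tshz1, a zinc finger protein, was higher by 1.72.

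Muscle and cytoskeletal genes included a myosin and its chaperone. Myh7, the slow and cardiac myosin heavy chain, had 2.16, 2.09, 2.19 and 2.77 in Luc and 4.25, 3.21, 4.03 and 4.31 after Rad21 esiRNA. Unc45b, which folds muscle myosin, had 3.43, 3.39, 3.29 and 3.38 in Luc and 5.65, 5.54, 5.62 and 5.22 after Rad21 esiRNA. Pdlim3, of the muscle Z-disc, Scin, an actin-severing protein, and Fhl2, a LIM-domain protein of the heart, were higher by 1.70, 1.58 and 1.54.

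The 4 channels and transporters were Scn3b, a sodium channel subunit (change 2.48), Neto2, an auxiliary subunit of kainate receptors (1.70), and the solute carriers Slc35f1 (1.57) and Slco5a1 (1.54). The ubiquitin ligase Hecw2 had 3.41, 4.03, 3.46 and 3.44 in Luc and 6.49, 6.50, 6.85 and 6.93 after Rad21 esiRNA. Fbxo32, the ubiquitin ligase atrogin-1 of wasting muscle, was higher by 1.94. Of immune genes, Tap1, which carries peptides to MHC class I, had 2.40, 2.75, 2.32 and 2.76 in Luc and 5.24, 5.38, 5.02 and 5.10 after Rad21 esiRNA. Cd80, a co-stimulatory ligand for T cells, was higher by 1.86. No role was assigned to 9 genes. Gm4850 had 3.18, 3.28, 2.75 and 3.46 in Luc and 5.42, 5.78, 5.60 and 6.09 after Rad21 esiRNA. The other 8 were Crybg1 (2.50), AI504432 (2.31), 3830417A13Rik (2.11), Gm11544 (1.75), Ankrd34b (1.74), Gm364 (1.60), Ccser1 (1.53) and Cpne2 (1.51), each given as a change on the log2 scale.

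How much rested on the chosen probe set was seen from the other probe sets of the members. Of 78 members, 34 had 1 probe set and 44 had further ones, 79 in all. The further probe sets had a median change of 0.03 on the log2 scale, with a range of -0.11 to 2.94, and 66 of the 79 had both group means under 4. In 20 of them the Rad21 values lay wholly above the Luc values and in 0 wholly below. Counted by gene, Rad21 values lay wholly above for 12.6% of all genes and 4.92% of dim genes. The 79 probe sets measure the members on the arrays that chose them, so their count is a description. A change of at least 1 in another probe set was seen for 14 members. Arg2 had the largest, from 3.27 to 6.21, a change of 2.94. Cd109 (2.32), Cd80 (2.31), Pcdh8 (2.30), Bcl11a (2.10) and Npnt (1.57) followed. Bcl11a also had a probe set with 1.46 and others with only 0.06, 0.04, 0.01 and 0.01. For some members with large changes the other probe sets were flat or nearly so. Spesp1 had -0.0002, Cav2 0.02, Tap1 0.03, -0.01 and -0.02, and Them5 0.56 and 0.01. The probe sets of these last genes had both group means under 4, and their change thus rested on the brightest probe set. When the probe sets of each gene were averaged, 42 genes met the rule and 40 of them were members.

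**Figure D2:**
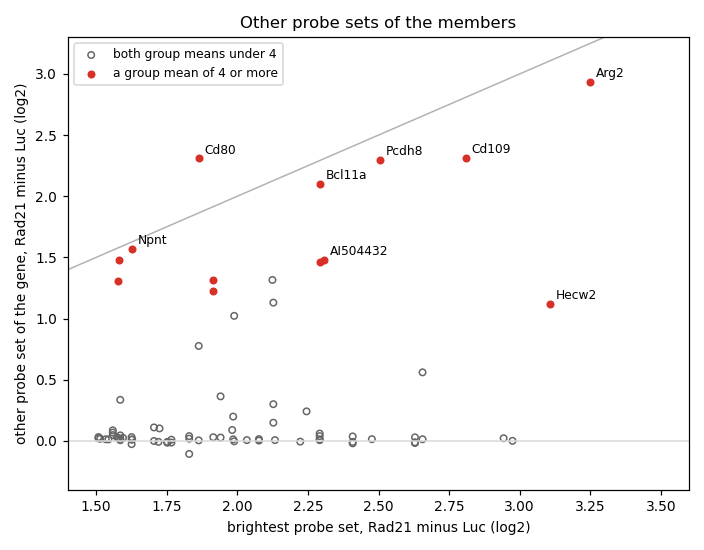
Change (Rad21 minus Luc, log2) of the 79 other probe sets of the members against the change of the brightest probe set of the same gene, with the line of equal change. Open points are probe sets with both group means under 4, of which there are 66; most of them lie near 0, while Arg2 reaches 2.94.

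To see whether genes beside the members changed too, the adjacent protein-coding gene on each side was taken from the RefSeq gene order. There were 156 such places, 155 genes and 134 measured genes, and after Cdh9 and Cdh10, which are members, were set aside, 132 were tested with limma over all 45037 probe sets. Of these, 21 rose (15.9%), 11 fell (8.33%) and 100 did not pass the test, so that 24.2% were called. Over all genes, 10.1% rose, 12.6% fell and 22.6% were called, and 14.9% of all probe sets were called. The median change of the neighbours was 0.01, against 0.00 for all genes. A total of 26 members had a called neighbour. A member could have a neighbour called on either side, so the 22.6% of single genes called is not a like share. This count is therefore a description and not a result about the members. Of 53 neighbours that were themselves dim in Luc, 3 rose. By another measure, 4.92% of all dim genes had Rad21 values wholly above the Luc values, against 12.6% of all genes. Calls of at least 1 in size numbered 7, of which 6 were upward, that is 4.55% of the neighbours, while 2.31% of all genes rose and 3.41% changed in either direction by that much. Within replicates 1 and 2 alone, 18 neighbours rose and 8 fell, and within replicates 3 and 4 alone 15 rose and 5 fell. These within-set counts have no share over all genes beside them and are given as a description.

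Sbsn, which encodes the epidermal protein suprabasin and is next to Dmkn, rose from 6.86 ± 0.14 to 9.01 ± 0.23 (log2, mean ± SD, n = 4), a change of 2.14 ± 0.12 (SE, adjusted p = 5.9e-05 in limma). On the other side of Dmkn, Krtdap, also a gene of differentiating keratinocytes, rose by 0.59 ± 0.11 (adjusted p = 0.00853 in limma). Dmkn was thus flanked by called rises on both sides, and its neighbour Sbsn was well above the dim range already in Luc. Beside Cdk14, the Wnt receptor gene Fzd1 rose from 4.51 ± 0.27 to 6.16 ± 0.33, a change of 1.65 ± 0.19 (adjusted p = 0.00123 in limma). Its Luc mean of 4.508 placed it just outside the limit of the rule. Beside Hdac9, the mesodermal transcription factor gene Twist1 rose by 1.36 ± 0.25 (adjusted p = 0.00968 in limma), by 0.96 in replicates 1 and 2 and by 1.76 in replicates 3 and 4. Stxbp6 beside Nrcam rose by 1.32 ± 0.22 (adjusted p = 0.00579 in limma), Mal2 beside Ccn3 by 1.13 ± 0.23 (adjusted p = 0.0154 in limma), and Nlrc5, an activator of MHC class I genes, beside Cpne2 by 1.09 ± 0.22 (adjusted p = 0.0158 in limma). Fitted within each replicate set alone, with 2 arrays a group, Sbsn, Krtdap and Fzd1 passed in both sets and Twist1 in neither (adjusted p = 0.0845 and 0.0586 in limma). Stxbp6 and Mal2 passed only in replicates 1 and 2, and Nlrc5 only in replicates 3 and 4.

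The opposite direction was found beside Slco5a1. There Prdm14, a transcription factor of naive pluripotency, fell from 9.33 ± 0.13 to 7.08 ± 0.17, a change of -2.25 ± 0.10 (adjusted p = 1.8e-05 in limma), while Slco5a1 was higher by 1.54. Within replicates 1 and 2 Prdm14 had a change of -2.46, and within replicates 3 and 4 of -2.04. Dnah7a and Hecw2 on chromosome 1 had a single gene between them, Stk17b, which fell by 0.23 ± 0.06 from a Luc mean of 9.84 (change -0.23, adjusted p = 0.0275 in limma). The members on both sides of Stk17b were higher by 2.18 and 3.11.

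**Figure D3:**
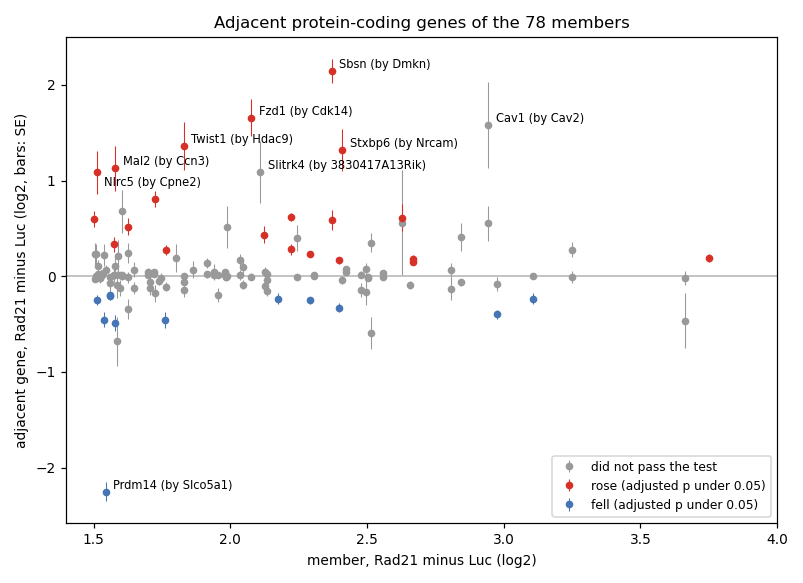
Change of each tested adjacent gene (Rad21 minus Luc, log2, bars are SE, 4 arrays per group) against the change of the member it adjoins; red points rose, blue points fell and grey points did not pass the test. Of 132 adjacent genes 21 rose and 11 fell, and most points lie near 0 whatever the change of the member; Sbsn (2.14) and Prdm14 (-2.25) lie farthest out.

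For the 12 members with the largest changes both neighbours are given. Beside Apol8, Myh9 rose by 0.19 ± 0.04 (adjusted p = 0.0239 in limma) from a Luc mean of 12.25, and Apol9b was not tested. Beside Vwce, Ddb1 had a change of -0.01 and Pga5 of -0.46 (adjusted p = 0.967 and 0.44 in limma). Beside Arg2, Pigh had a change of 0.28 and Vti1b of -0.01, and neither passed the test. Beside Hecw2, on the side away from Stk17b, Ccdc150 had 2.10 in both groups. Beside Spesp1, Anp32a fell by 0.40 (change -0.40 ± 0.05, adjusted p = 0.00143 in limma) and Glce had -0.08. Both neighbours of Fgfbp3 rose slightly, Tnks2 by 0.18 and Btaf1 by 0.15 (adjusted p = 0.0231 and 0.0181 in limma).

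A pair of the 12 lay in small clusters of related function. Cav1, the partner of Cav2 in caveolae, had 5.36 in Luc and 6.94 after Rad21 esiRNA, a change of 1.58 ± 0.45 that did not pass the test over all arrays (adjusted p = 0.0567 in limma). Fitted within the replicate sets, it passed in both, with 1.86 in replicates 1 and 2 (adjusted p = 0.0129 in limma) and 1.29 in replicates 3 and 4 (adjusted p = 0.0148 in limma), and in both groups its values were lower in replicates 3 and 4. Tes on the other side of Cav2 had 0.55 (adjusted p = 0.0932 in limma). Tap1 lies between the immunoproteasome genes Psmb9 and Psmb8. Psmb9 rose from 3.81 ± 0.19 to 4.42 ± 0.24, a change of 0.61 ± 0.14 (adjusted p = 0.0243 in limma), and Psmb8 had a change of 0.56 ± 0.55 (adjusted p = 0.702), with -0.35 for replicates 1 and 2 but 1.47 for replicates 3 and 4. The neighbours of Ubtfl1 (Naalad2, 0.41, and Mbd3l2, -0.06), of Cd109 (Slc17a5, -0.13, and Col12a1, 0.07), of Them5 (Them4, -0.09, with C2cd4d not tested) and of Gm4850 (Dnaaf6, 0.03, and Khdrbs2, -0.01) did not pass the test.

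Other genes were compared with the members by symbol stem, the letters before the first digit. A shared stem does not always mean a shared gene family. Some of these genes also lie next to a member, as Cav1 does beside Cav2. For 36 stems with 3 to 40 measured genes there were 373 other genes. Of these, 35 rose (9.38%) and 49 fell (13.1%), against 10.1% and 12.6% of all genes. The 3 other measured genes with the stem Apol and the 10 others with the stem Pcdh were dim in both groups, and 0 of them were called. Protocadherins whose symbols carry a further letter before the first digit were not counted here. Among relatives of Ccn3, Ccn1 rose from 8.89 ± 0.14 to 11.05 ± 0.07, a change of 2.16 ± 0.07 (adjusted p = 9e-06 in limma), and Ccn2 rose by 1.73 ± 0.12 (adjusted p = 0.000144). Both are matricellular proteins. Ptpn13 and Ptpn14, relatives of Ptpn18, rose by 2.22 and 1.31, Cpne8 by 1.63, Lrrn4 by 1.51 and Wnt5a by 1.42. In the other direction, Scn3a, a sodium channel gene that shares the stem of Scn3b, had a change of -1.77 ± 0.10 (adjusted p = 5e-05 in limma). Myh3, a developmental myosin, had a change of -1.39 ± 0.32 (adjusted p = 0.025 in limma).

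Only 4 members belonged to 11 lists of tissue and pathway genes chosen for comparison, namely Cd80, Tap1, Arg2 and Myh7. The lists were chosen with earlier results of these data known, so their counts are a description. Over all genes, 10.1% rose and 12.6% fell, and the counts of each list are to be read beside these shares. The p53 target list, which contains Cd80, had 18 of 28 measured genes that rose, 0 that fell and a median change of 0.79, against 0.00 over all genes. Plk2, Ddit4l and Pmaip1, a pro-apoptotic gene, rose by 1.65, 1.59 and 1.56. The list of 2-cell-like genes, a rare ESC state that resembles the early embryo, contains Arg2 and had 8 of 16 measured genes that rose and 0 that fell, with a median of 0.25. Usp17la rose by 5.50, AF067061 by 4.10 and Gm20767 by 4.07, and probe sets may not tell such genes from near-identical copies. Usp17la began from a Luc mean of 4.51 and thus lay just outside the dim range of the members. These counts include the member, whose direction was fixed by the rule. Ddit4l is on both the p53 target list and the 2-cell-like list and counts as a rise in each.

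Without a member, the pluripotency list had a median of -0.86, with the calls given above. For the counts that follow, the shares over all genes were again 10.1% up and 12.6% down. In the interferon and immune list, which contains Tap1, 4 of 27 rose and 4 fell, with a median of 0.02. Irgm1, an interferon-inducible GTPase, rose by 3.47, while Oas1a, an antiviral enzyme, had a change of -1.73. In the muscle and mesoderm list, which contains Myh7, 5 of 30 rose and 2 fell, and 21 were dim in both groups. Acta2, smooth muscle actin, rose by 2.71 and Actc1, cardiac actin, by 1.26. Among lists that also held no member, 4 of 27 endoderm genes rose and 1 fell, 5 of 30 trophectoderm and epithelial genes rose and 5 fell, 6 of 28 germline genes rose and 0 fell with a median of 0.20, and 3 of 28 neuronal genes rose and 4 fell. In the fibroblast list 1 of 14 rose (Vim, 0.80) and 1 fell, and its mean level on single arrays ran from 3.94 to 4.07 in Luc and from 4.03 to 4.16 after Rad21 esiRNA. In the blood and macrophage list 0 of 12 rose and 1 fell, with array means of 3.91 to 3.96 in Luc and 3.82 to 3.88 after Rad21 esiRNA. Col3a1, a fibroblast collagen, was near 3 on all Luc arrays and had 4.69, 4.25, 3.11 and 3.42 after Rad21 esiRNA (change 0.80, adjusted p = 0.189 in limma). The part of other cell types in the member values was not tested.

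Sequence around the start sites was described for 60 members with an entry in the RefSeq promoter table, which had 77 windows from 250 bases before to 50 bases after a start. Their median ratio of observed over expected CpG was 0.55, against 0.36 for the windows of other dim genes and 0.38 for all windows. The median GC content was 58.3%, 54.0% and 52.7% in the same order. A ratio of at least 0.6 was found in 40.3% of member windows, 29.0% of windows of other dim genes and 35.8% of all windows. Wnt9a (1.11), Ccser1 (1.08), Ulk2 (1.08) and Cdk14 (1.07) had the highest ratios among the members, and of the genes printed above Sct had 0.72, Vwce 0.55, Cav2 0.52, Apol8 0.30 and Dmkn 0.25.

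**Figure D4:**
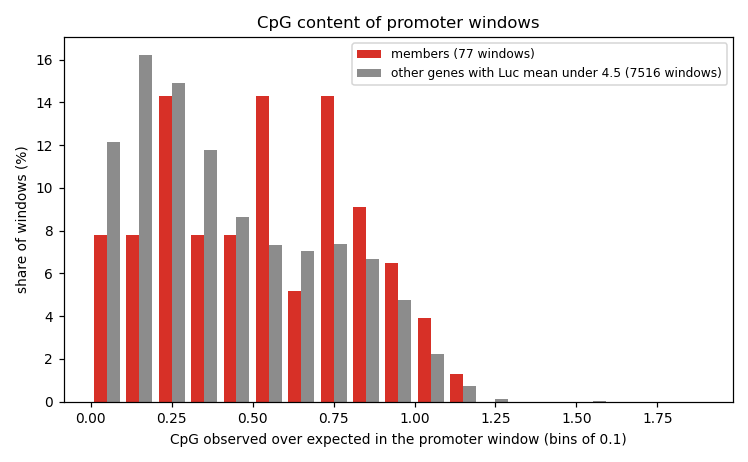
Share of promoter windows (%) in bins of 0.1 of the observed over expected CpG ratio, for 77 windows of members (red) and 7516 windows of other genes with a Luc mean under 4.5 (grey). Member windows lie further to the right, with a ratio of at least 0.6 in 40.3% against 29.0%.

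Short motifs were searched on both strands of these windows, and none of the motifs spelled out contains another. The GC box GGGCGG was found in 51.9% of member windows, 34.8% of windows of other dim genes and 35.7% of all windows. It was present for 38 members, Vwce, Sct and Cav2 among them, with a first base 16 and 44 bases before the start of Vwce. The AP-1 site TGACTCA was found in 10.4%, 6.01% and 5.20%, for the members 3830417A13Rik, Cav2, Dmkn, Gm364, Hmgcll1 and P2rx7. The TATA box TATAAA was found in 10.4%, 13.9% and 13.6%, and that of Sct began 28 bases before the start. The CCAAT box was found in 28.6%, 36.5% and 37.4%, and the E-box CACGTG in 7.79%, 6.35% and 7.15%. The forkhead site TGTTTAC was found in 0 member windows, 3.62% of windows of other dim genes and 3.65% of all, and the CTCF core motif in 0, 0.506% and 0.557%. These are matches of letters in a fixed window and were not tested for binding.

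The replicate sets gave a comparison that the group means of the rule did not use. Only the difference between the sets is such a comparison. The responses themselves average to the change that chose the members, and as a description their median was 1.99 in the first set, replicates 1 and 2, against 1.87 in the other. The response was larger in replicates 3 and 4 for 40 members and in replicates 1 and 2 for 38. Rad21 itself was at 11.69 and 11.75 on Rad21 arrays 1 and 2 and at 12.37 and 12.52 on arrays 3 and 4. By an interaction term of group and replicate set in limma, adjusted over all probe sets, 2 members were called, where 1.03% of all genes were called. Mrc2 responded by 1.12 in replicates 1 and 2 and by 2.95 in replicates 3 and 4, a difference of 1.83 ± 0.23 (SE, adjusted p = 0.0461 in limma). Pcdh8 responded by 3.23 and 1.78, a difference of -1.44 ± 0.17 (adjusted p = 0.0394 in limma). Another 7 members differed by at least 1 between the sets and did not pass the test. The widest of them were Tgfbr3, with 0.65 and 2.38 (adjusted p = 0.18), and Gal, with 2.33 and 0.71 (adjusted p = 0.0992). Both calls were lost in the plain analysis of variance and when any single Luc array, Rad21 array 1 or Rad21 array 2 was left out, and that of Pcdh8 also without Rad21 array 3.

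A level that differed between the replicate sets over both groups was called for 5 members, where 6.66% of all genes were called. Cd109 was lower in replicates 3 and 4 by 0.31 (difference -0.31 ± 0.02, adjusted p = 0.0036 in limma) while its response was 2.80 and 2.82 in the 2 sets. Nrcam had a difference of -1.03 and Pcdh8 of -0.64, while Mrc2 had 0.88 and Gm364 0.49. The calls of these 4 were lost in the plain analysis of variance and without Luc array 2, 3 or 4 or Rad21 array 1, among others, and that of Cd109 with a trend and robust prior.

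**Figure D5:**
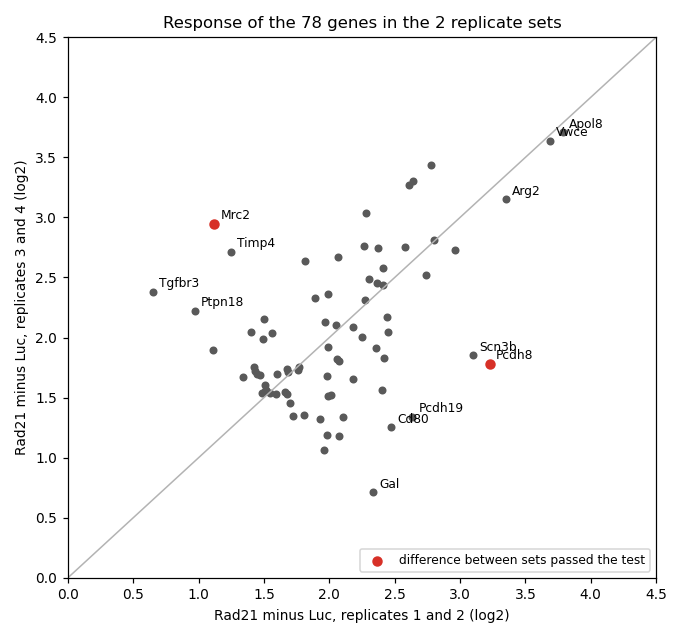
Response (Rad21 minus Luc, log2) of the 78 members in replicates 3 and 4 against the response in replicates 1 and 2, with the line of equal response. Red points are Mrc2 and Pcdh8, whose difference between the sets passed the test; named grey points differ by at least 1 or are Apol8, Vwce and Arg2.

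The limits of the rule cut through a continuous range. On the limit for the Luc mean, Lrrk2 (4.496) and Cdk14 (4.371) lay just inside, and Fzd1 (4.508) and Usp17la (4.514) just outside. On the limit for the change, Alox5 (1.501) and Hsd11b2 (1.503) lay just inside, and Eps8l2 (1.496) and Fosl1 (1.492) just outside. The mirror image of the rule, genes dim after Rad21 esiRNA and at least 1.5 higher in Luc, was met by 16 genes. Inhbb, a subunit of activins and inhibins, had the largest difference among these, from 9.09 in Luc to 4.26 after Rad21 esiRNA. This count of 16 stands beside the 86 genes that met the rule before names were left out.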

How the data were processed

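RNA of 8 cultures was hybridised to Affymetrix mouse expression arrays. The authors summarised probe sets with GCRMA in Partek Genomics Suite 6.4 and deposited the log2 values. Since GCRMA equalises the distributions of the arrays, a shift of the whole transcriptome would be hidden. The labels give 250 ng of RNA for labelling, and the study's methods give another unit. The file holds no comparisons of the authors, and 0 columns of other samples.

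Of 45101 probe sets, 64 were controls, and the other 45037 were tested. The platform annotation gave 1 symbol to 34945 of them, several to 932 and none here to 9160, and the brightest probe set with 1 symbol stood for a gene. Groups were compared with limma 3.58.1 (lmFit, eBayes, two-sided) in R 4.3.3 without a block, and p-values were adjusted by Benjamini-Hochberg. An adjusted p under 0.05 was a call. The test was checked on simulated data. RefSeq tables of GRCm38.p6 gave names, gene order and promoter sequences. The arrays state no genome build, so no distances are given. Tables were handled with pandas 2.3.3 and numpy 2.4.6 and plotted with matplotlib 3.10.9.

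The members and all gene lists were chosen with earlier results of these data known. All members are named. Values on every array are given for the 12 largest changes, for adjacent members and for members sharing a symbol stem. Those of Sct, Gal, Galr2, Pam, Alox5, Cysltr1, Myh7, Unc45b, Dmkn, Mrc2, Nrcam, Cdk14, Hdac9 and Tgfbr3 were chosen after their values were seen, as were Krtdap, Stk17b, Col3a1 and the smaller stem groups. Named neighbours are calls of at least 1 in size and both neighbours of the 12. Alternatives were the study's analysis of variance, other priors, scalings, filters, limits and neighbour definitions, a replicate block and leaving out each array. Fits within replicate sets were added after the data had been seen. Scanner files were not used here.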

Additional observations from a re-analysis of the deposited data

Results flagged for a closer look

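In 60 groups of 4 arrays, those of the members whose single values are given, 4 arrays stood apart from the other 3 by Dixon's criterion, of which chance gives about 1 in 20 groups. They were Hecw2 on Luc array 2 (4.03), Them5 on Rad21 array 2 (5.03), Cdk14 on Luc array 1 (4.57) and Myh7 on Luc array 4 (2.77). In each case the array lay on its own side of the gap between the groups, which the rule required of every member.

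The response of 2 members differed between replicates 1 and 2 and replicates 3 and 4 by an interaction term in limma. Mrc2 responded more in replicates 3 and 4 (difference 1.83, adjusted p = 0.0461) and Pcdh8 less (difference -1.44, adjusted p = 0.0394). As measured, both differences lay in the Rad21 arrays, since the Luc values of the sets differed by less than 0.1 in both genes. Both genes were near background in Luc, where a difference between the sets might not show. The labels name no batch for the sets.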

How the results depend on the processing

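The rule gave 146 genes with a smallest change of 1, 33 with 2 and 42 after averaging probe sets, 60 to 91 under the other settings and 72 to 86 without single arrays, while its mirror image gave 38, 7 and, without single arrays, 13 to 19. Over all probe sets, 6697 calls became 3893 at an adjusted p under 0.01 and 5395 to 6210 without single arrays. The 32 called neighbours of 132 tested (24.2%) became 18 at that threshold, 20 within replicates 3 and 4, and 26 to 32 without single arrays. With 3 genes on each side, more genes were tested, and 104 of 382 were called (27.2%). The 2 members called for a response that differed between replicate sets became 0 in the plain analysis of variance and 0 to 3 without single arrays, and the 5 called for level became 1 in the analysis of variance, 9 with a trend and robust prior and 1 to 10 without single arrays (10 without Rad21 array 4, 1 without Luc array 4, 2 without Luc array 3, 3 without Rad21 array 1).

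Same-numbered arrays of the groups deviated together with correlations of 0.02 to 0.13, so the numbers were not taken to pair the samples. With the replicate block, 6224 probe sets, 29 neighbours and 0 members for the difference in response were called, and Mal2 (adjusted p = 0.0578 in limma) and Twist1 (adjusted p = 0.0538 in limma) lost their calls. Among 204 recomputed values of single genes, 155 kept their direction and call, 49 kept their direction and lost the call, and 0 reversed. The cause of these changes was not tested. Signal near background limits every member value in Luc.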
